A study of Mus musculus with 6 samples.

Results

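Vascular smooth muscle cells are the contractile mural cells that ring arteries, arterioles and, more sparsely, venules of the brain. They were picked out of single-cell RNA-seq of mouse brain microvessels as barcodes with at least 1000 unique molecular identifiers (UMIs, counts of captured RNA molecules) and at most 15% of them from mitochondrial genes. At least 4 of the 6 contractile genes Acta2, Tagln, Myh11, Myl9, Tpm2 and Cnn1 had to be detected, with at least 5 UMIs summed over Acta2, Tagln and Myh11. At most 1 of the endothelial genes Pecam1, Cdh5, Flt1, Ly6c1 and Cldn5 was allowed, and no UMI of the microglial gene C1qa. The rule found 701 cells among 30586 deposited barcodes, of which 27852 passed the limits on UMIs and mitochondrial RNA.

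The Cldn5 iECKO mice were Cldn5 fl/fl and R26 YFP/YFP on C57Bl6 and carried Cdh5-creERT2+, a tamoxifen-inducible recombinase driven by the promoter of an endothelial cadherin. The control mice were also C57Bl6 with Cldn5 fl/fl, floxed alleles of a tight-junction gene, and with the R26 YFP/YFP reporter, but had no recombinase. Both groups received tamoxifen (20 mg/ml) by oral gavage on 3 days at an age of about 3 months. Microvessels were pulled down with beads against PECAM1, an endothelial surface protein, then freed with collagenase and TrypLE, so smooth muscle cells came along with endothelium, and the recombinase was not directed at them. Each group had 3 libraries (10x Genomics 3′ chemistry v3.1); whether a library is 1 animal is not stated in the sources used here, so p-values measure the spread between libraries.

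Smooth muscle tone depends on calcium, which activates myosin light chain kinase, and myosin then pulls on actin filaments held together by tropomyosin, calponin and transgelin. The transcription of many of these genes is driven by serum response factor with its partner myocardin, which bind a DNA sequence called the CArG box. In the brain these cells set the blood flow of each arteriole, and they grade along the vessel tree into pericytes, mural cells of capillaries that carry little contractile protein.

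The promoters of 2 of the marker genes and of Fgl2, a gene higher in iECKO cells, are shown because all of them hold a CArG box. They are 300 bases each, 250 before and 50 after the annotated start, 5′ to 3′ on the gene's strand, from RefSeq on GRCm38.p6, with matches to the CArG box in capitals. Acta2 is at chr19:34255324-34255623 on the minus strand, Myl9 at chr2:156775214-156775513 on the plus strand and Fgl2 at chr5:21372423-21372722 on the plus strand.
Acta2: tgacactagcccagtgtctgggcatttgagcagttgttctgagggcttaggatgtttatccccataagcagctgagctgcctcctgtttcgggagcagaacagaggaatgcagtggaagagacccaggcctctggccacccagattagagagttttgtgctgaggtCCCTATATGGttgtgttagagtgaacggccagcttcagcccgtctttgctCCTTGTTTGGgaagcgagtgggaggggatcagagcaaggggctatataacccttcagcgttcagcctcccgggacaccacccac
Myl9: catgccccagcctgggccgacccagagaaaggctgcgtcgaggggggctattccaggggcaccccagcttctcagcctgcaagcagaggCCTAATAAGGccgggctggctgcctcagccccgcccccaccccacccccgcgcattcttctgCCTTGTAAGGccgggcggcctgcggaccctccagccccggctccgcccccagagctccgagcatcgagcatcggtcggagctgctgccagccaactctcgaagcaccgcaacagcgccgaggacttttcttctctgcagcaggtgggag
Fgl2: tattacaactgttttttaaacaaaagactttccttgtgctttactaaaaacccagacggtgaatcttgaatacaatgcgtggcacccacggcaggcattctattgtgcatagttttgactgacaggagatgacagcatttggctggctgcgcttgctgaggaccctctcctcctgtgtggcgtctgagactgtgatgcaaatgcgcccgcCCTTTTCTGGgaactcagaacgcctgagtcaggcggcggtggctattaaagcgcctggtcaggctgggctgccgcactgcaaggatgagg
A box with only A and T between its outer bases, the consensus form, occurred in 1.63% of 32851 mouse promoters of this length, and one with a single G or C allowed in the middle in 9.98%; both forms read the same on either strand, and the second count includes the first. Myl9 held 1 consensus box, 161 bases before the start, and 1 of the looser form 99 bases before it. Both Acta2 boxes, 84 and 34 bases before the start, and the Fgl2 box, 40 bases before it, were of the looser form. The Tpm2 and Cnn1 promoters held no match within this window, and neither did that of Ccl19, a gene lower in iECKO cells. A match is a description of the letters and no evidence of binding.

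The libraries yielded 227, 40 and 99 smooth muscle cells in iECKO replicates 1, 2 and 3, against 105, 102 and 128 in control replicates 1, 2 and 3. Total UMIs ran from 15727366 to 49350802 in iECKO libraries and from 29721428 to 31638780 in control libraries, and the smooth muscle cells summed to 259630 to 1378673 UMIs in iECKO and 503274 to 899847 UMIs in control libraries. Replicate 2 of both groups stood apart, with 15.1% of smooth muscle UMIs on the ribosomal RNA-linked transcript Gm42418 in iECKO 2 and 16.4% in control 2, against 1.51% to 5.27% in the other libraries. It was also the replicate with the female transcript Xist, at 782 CPM in iECKO 2 and 747 CPM in control 2 (CPM is a gene's UMIs per 1000000 UMIs of the cells summed), while the other 4 libraries had at most 1.45 CPM. Cldn5 in endothelial cells averaged 2611 ± 286 CPM in iECKO and 4587 ± 293 CPM in control libraries (SD, n = 3 each), with no overlap. Between any pair of libraries 0 to 16 barcodes were shared, and 1 barcode was a smooth muscle cell in both of 2 libraries. In addition, 650 barcodes of iECKO 1 met the muscle criteria but had 2 or more endothelial genes and were left out by the rule, against 27 and 82 in the other iECKO libraries and 55 to 74 in control libraries.

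At the limits of the rule on the muscle genes, of the 701 cells 52 had exactly 4 of the 6 markers and 8 had exactly 5 UMIs over Acta2, Tagln and Myh11; just outside were 12 barcodes with 3 markers and 6 with 4 UMIs. All 6 markers were found in 365 cells. At the endothelial limit, 285 cells had 1 of the 5 endothelial genes and 416 had none, and just outside were 100 barcodes with 2 of them. Cldn5, the gene targeted in iECKO, is 1 of these 5, and its part in which barcodes passed was not tested. A further 68 barcodes failed on mitochondrial RNA, 34 of them in control 2 and 18, 8 and 6 in iECKO replicates 1 to 3.

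Over all the cells summed, the label held for Pln, Myocd and Lmod1, which the rule had not used. The cells of low marker share, described below, carried more of the genes found in pericytes. Pln, which encodes phospholamban, the brake on the calcium pump of the sarcoplasmic reticulum, had 1362, 1152 and 1447 CPM in iECKO and 1271, 1384 and 1264 CPM in control smooth muscle cells. In a pericyte gate of the same libraries (259 cells with at least 4 of 8 pericyte markers and at most 1 UMI over Acta2, Tagln and Myh11) Pln had 16.5 CPM in control 2 and no UMI in the other 5 libraries. Myocd, which encodes myocardin, averaged 90.4 ± 13.1 CPM (SD, n = 6) in smooth muscle cells, with 0.0584 CPM in 22388 endothelial cells and no UMI in pericytes, which allows up to 4.65 CPM there (3 counts over the 6 libraries). Lmod1, an actin filament nucleator, averaged 655 ± 57.5 CPM, against 39.5 ± 16.9 CPM in pericytes. Cells were chosen by genes correlated with these, so these levels are a description without a test.

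Markers of other cell types were found at unequal levels in smooth muscle cells. Endothelial markers summed to 79.8 to 133 CPM in iECKO and 94.5 to 185 CPM in control smooth muscle cells, against 13702 to 20586 CPM in endothelial cells. Of 7 fibroblast markers, Lum, Pdgfra and Dpt had no UMI in smooth muscle cells (up to 0.658 CPM each, 3 counts over the 6 libraries). The other 4 were detected, with Col3a1, Col1a2 and Dcn highest, and the 7 summed to 321 to 1132 CPM in iECKO and 329 to 730 CPM in control libraries. Of 6 astrocyte markers, Gfap and Aqp4 had no UMI (the same limit) and 4 were detected. These 6 summed to 0 to 9.43 CPM in iECKO and 4.45 to 9.93 CPM in control libraries. All 8 pericyte markers were detected; they summed to 2605 to 6124 CPM in iECKO and 2648 to 4196 CPM in control libraries, against 21612 to 35753 CPM in pericytes. Microglial markers summed to 39.2 to 42.4 CPM in iECKO and 9.77 to 41.1 CPM in control cells, about as in endothelial cells (32.2 to 54.4 CPM in all). Hemoglobin genes reached 430 CPM in iECKO 1 and 27.8 to 147 CPM elsewhere. Of 3 T cell genes, Cd3e and Cd3d had no UMI while Trac had 13.9 to 34.7 CPM in all 6 libraries, against 0.16 to 0.62 CPM in endothelial cells.

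Outside the genes of either gate, those with the largest excess in smooth muscle over pericytes in every library included several of the contractile and adhesion machinery. After Pln came Sorbs2, an adaptor at actin attachment sites, with 1248 ± 191 CPM (SD, n = 6) in smooth muscle cells and 0 to 41.3 CPM in pericytes. Palld, which encodes the actin bundler palladin, had 625 ± 79.8 CPM in smooth muscle cells and 7.34 ± 8.49 CPM in pericytes. The LIM-domain genes Csrp1 and Csrp2 had 1542 ± 412 CPM and 520 ± 140 CPM in smooth muscle cells, and in pericytes 69.5 ± 35.2 CPM and 11.6 ± 11.8 CPM. Vim, the intermediate filament gene vimentin, averaged 2937 ± 763 CPM, against 145 ± 56.8 CPM in pericytes. Sncg (680 ± 193 CPM), Fbxl22 (340 ± 49.0 CPM), the tetraspanin gene Cd9 (722 ± 227 CPM) and the sodium pump subunit Atp1b1 (385 ± 84.3 CPM) completed the list, each at 25.5 CPM or less on average in pericytes.

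The genes lower in smooth muscle cells in every library included transporters, enzymes and a growth factor. Ptn, which encodes the growth factor pleiotrophin, averaged 391 ± 185 CPM in smooth muscle cells and 6226 ± 989 CPM in pericytes. The transporters Slc6a20a and Slc22a8 had 17.8 ± 8.93 CPM and 2.15 ± 2.09 CPM in smooth muscle cells, and 655 ± 90.1 CPM and 217 ± 80.6 CPM in pericytes. Plxdc2, Art3, Gatm, Colec12, Ggt1 and Uchl1 averaged 1.51 to 33.5 CPM in smooth muscle cells and 209 to 711 CPM in pericytes.

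**Figure D1:**
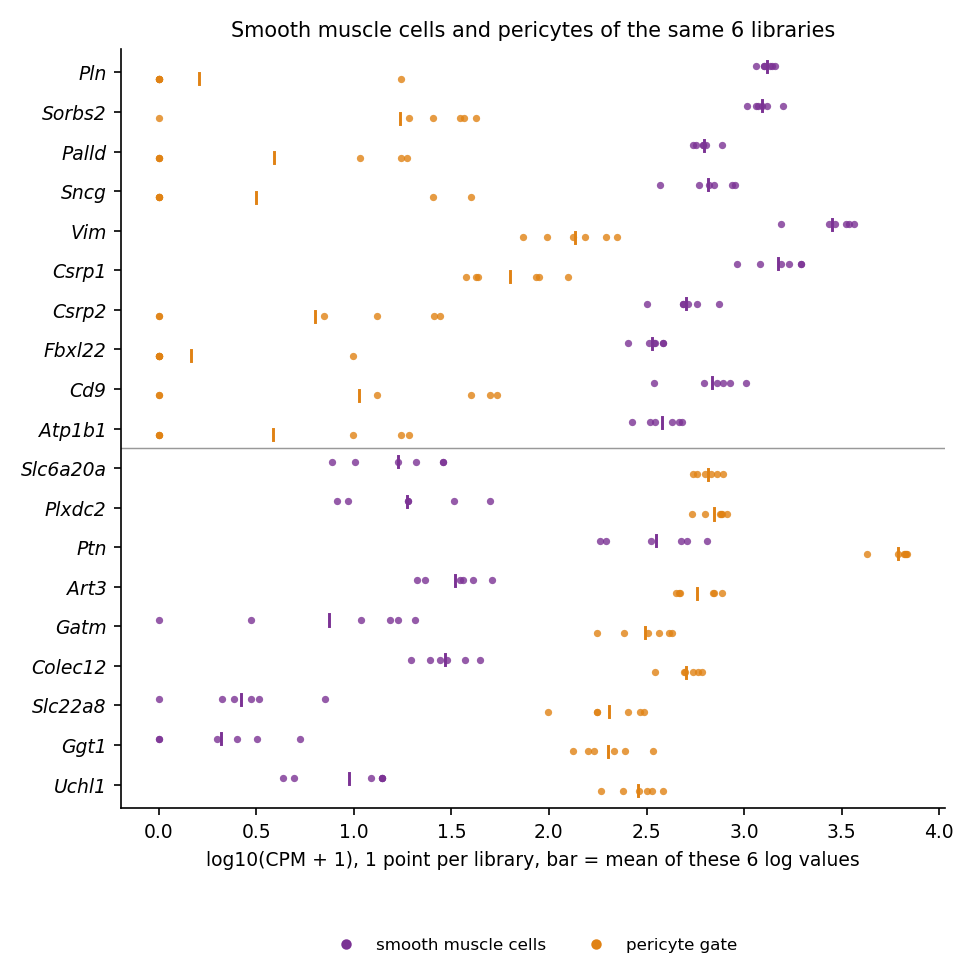
CPM on a log10(CPM + 1) scale of the 10 genes highest (upper block) and 9 of the 10 lowest (lower block) in smooth muscle cells relative to pericytes, 1 point for each of 6 libraries, purple for smooth muscle and orange for the pericyte gate. In each gene all 6 smooth muscle points lie on one side of all 6 pericyte points; Pln has 1313 ± 105 CPM in smooth muscle and 2.75 ± 6.74 CPM in pericytes.

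Within the smooth muscle cells the 6 markers took up very different shares of the RNA. The share ran from 0.18% to 9.28% of a cell's UMIs in iECKO 1, and in each library a smaller group of cells lay under 2%. That group held 38, 19 and 25 cells in iECKO replicates 1 to 3 (16.7%, 47.5% and 25.3%), against 13, 31 and 29 cells in control replicates (12.4%, 30.4% and 22.7%). In the whole set 155 cells lay under 2%, with 61 between 1% and 2% and 48 between 2% and 3%. The exact 95% intervals (Clopper-Pearson, counting error only) were 31.5% to 63.9% in iECKO 2 and 6.76% to 20.2% in control 1, the highest and the lowest library. The groups averaged 29.8% ± 15.9 in iECKO and 21.8% ± 9.04 in control libraries (SD, n = 3 each), which overlapped; since the share is made of genes of the rule, this is a description without a test.

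**Figure D2:**
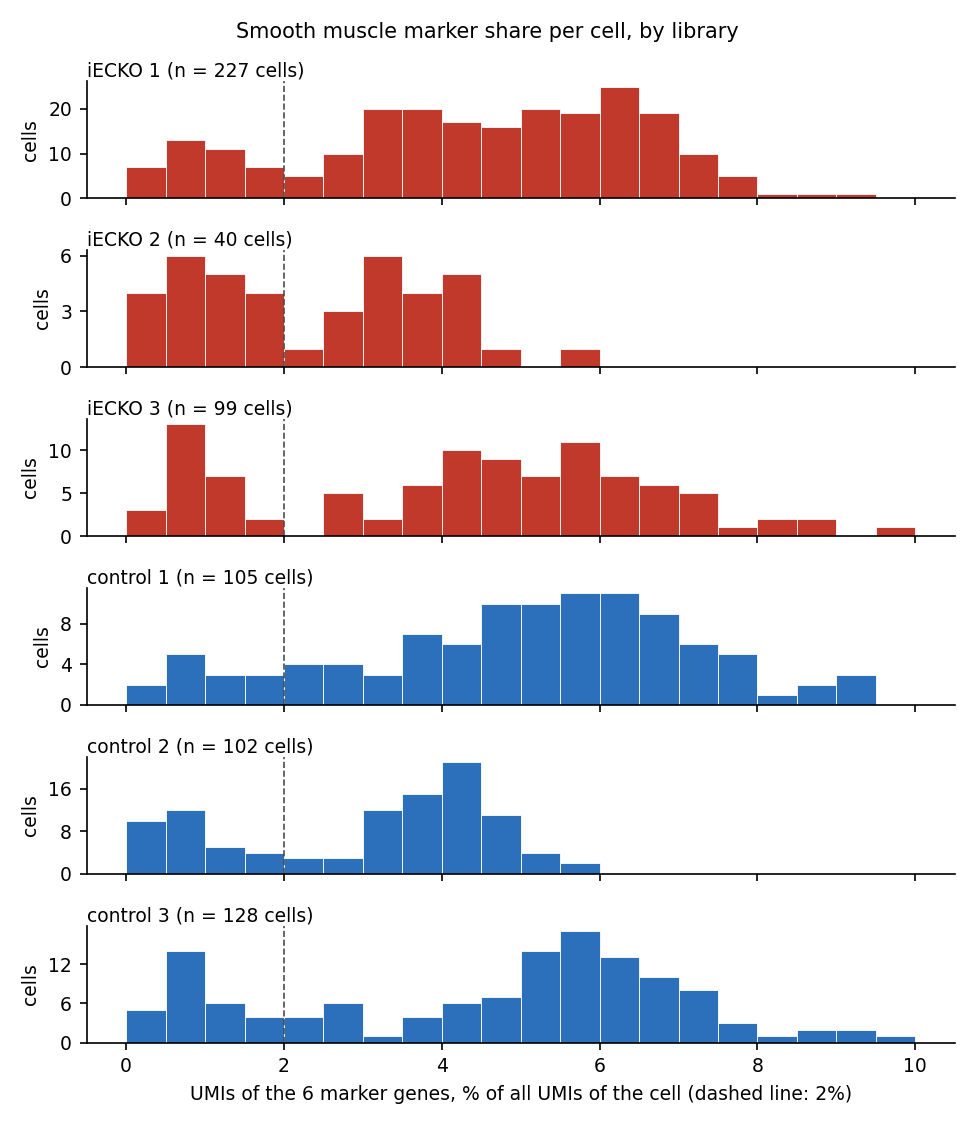
Number of smooth muscle cells (y axis) by the percent of their UMIs on the 6 marker genes (x axis), 1 panel per library, iECKO in red above control in blue; the dashed line is at 2%. Each library has a main group of cells above 2% and a smaller one below it, which holds 47.5% of the 40 cells of iECKO 2 and 12.4% of the 105 cells of control 1.

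Each library was also divided at its own median of the marker share, and levels were taken per 1000000 UMIs outside the 6 markers. Of 5337 genes with at least 100 UMIs, 531 (9.95%) were higher and 717 (13.4%) lower in the high-share cells in all 6 libraries. The split and the 2% limit were chosen after the values were seen. Of 26 other contractile genes, 19 were higher and 2, Vcl and Casq2, lower in this way. The largest ratio after adding 20 CPM to both levels was that of Ptgis, which encodes prostacyclin synthase, the enzyme making a relaxant of smooth muscle, with 274 ± 101 CPM in high-share and 62.9 ± 47.6 CPM in low-share cells (SD, n = 6). Igfbp4 and Igfbp5, binding proteins of insulin-like growth factors, had 361 ± 80.2 CPM and 161 ± 44.2 CPM in high-share cells, and 105 ± 45.8 CPM and 44.4 ± 19.4 CPM in low-share cells. The metalloproteinase inhibitor Timp4 had 61.9 ± 30.3 CPM in high-share cells and 4.56 ± 4.35 CPM in low-share cells.

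Low-share cells carried more of the genes found in pericytes. All 8 pericyte markers were lower in the high-share cells in all 6 libraries, among them Rgs5, a regulator of G-protein signalling, with 428 ± 261 CPM in high-share and 5594 ± 2305 CPM in low-share cells, and Vtn, which encodes vitronectin, with 73.5 ± 53.5 CPM in high-share and 1664 ± 514 CPM in low-share cells. Ptn had 17.5 ± 6.89 CPM in high-share and 924 ± 438 CPM in low-share cells. The chemokine gene Ccl19, with 1.54 ± 2.42 CPM in high-share and 284 ± 139 CPM in low-share cells, belonged here too. Of the genes with at least 100 UMIs, 6 of 12 in the Notch pathway, including the mural receptor gene Notch3, and 10 of 20 of basement membrane and integrins, including Col4a1 and Col4a2, were lower in high-share cells in all 6 libraries. Cells under 2% were shallower, with median UMIs of 3644.5 to 5631 in iECKO and 3246 to 4362 in control libraries, against 5367 to 8803 in iECKO and 5381 to 6923 in control libraries from 2% on. They also had less mitochondrial RNA, at medians of 5.81% to 7.31% in iECKO and 4.53% to 6.30% in control libraries, against 9.16% to 9.85% in iECKO and 7.86% to 9.10% in control libraries from 2% on. The part of depth, mitochondrial RNA and pericyte RNA in this difference was not tested.

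**Figure D3:**
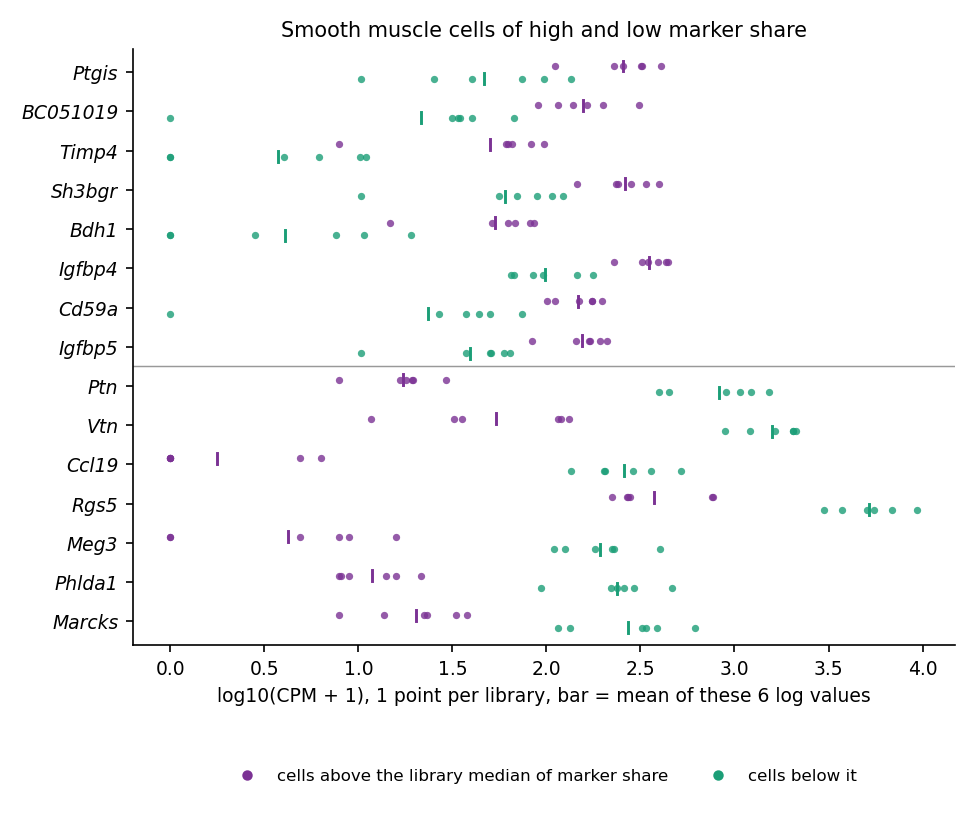
Level on a log10(CPM + 1) scale, outside the 6 markers, of the 8 genes highest (upper block) and 7 of the 8 lowest (lower block) in cells above their library's median marker share (purple) relative to cells below it (green), 1 point per library. Rgs5 lies at 428 ± 261 CPM above and 5594 ± 2305 CPM below the median, and Ptgis at 274 ± 101 CPM above and 62.9 ± 47.6 CPM below it.

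The number of smooth muscle cells did not separate the genotypes. They made up 3.35%, 1.80% and 2.61% of the barcodes kept in iECKO libraries, against 1.96%, 1.76% and 3.28% in control libraries, means of 2.58% ± 0.775 in iECKO and 2.33% ± 0.828 in control libraries (SD, n = 3 each; two-sided exact permutation p = 0.7; 0.1 is the smallest p that 3 against 3 libraries can give). Set against pericytes of the same library, there were 445, 97.6 and 367 smooth muscle cells per 100 pericytes in iECKO and 404, 170 and 237 in control libraries (exact permutation p = 0.9). With 27 to 51 pericytes in iECKO and 26 to 60 in control libraries this ratio is loose. Median depth was 6401 ± 1398 UMIs per cell in iECKO and 5904.5 ± 1018 UMIs in control libraries (exact permutation p = 0.6). The median mitochondrial share was 8.63%, 8.77% and 9.14% in iECKO and 8.13%, 8.31% and 7.23% in control smooth muscle cells, without overlap (exact permutation p = 0.1, the smallest possible). Endothelial cells had a like order, 3.90%, 4.12% and 4.50% in iECKO and 3.59%, 3.52% and 3.24% in control libraries.

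The levels of the 6 contractile markers overlapped between the genotypes and, since they chose the cells, are a description. Acta2, smooth muscle actin, had 17773, 8234 and 14249 CPM in iECKO and 19912, 12298 and 15850 CPM in control cells. Tagln, the actin-binding protein transgelin, had 15728, 7496 and 12758 CPM in iECKO and 15653, 10851 and 12400 CPM in control cells, and Myh11, the smooth muscle myosin heavy chain, 3539, 4375 and 4187 CPM in iECKO and 4335, 5136 and 4242 CPM in control cells. Their log2 differences (iECKO minus control) lay between -0.25 and -0.11, below 0 in 6 of 6 genes, and the rule sets a minimum for these genes in both groups. Together the 6 genes took 4.86%, 2.64% and 4.82% of smooth muscle UMIs in iECKO and 5.37%, 3.34% and 4.92% in control libraries (means 4.11% ± 1.27 in iECKO and 4.54% ± 1.07 in control libraries, SD, n = 3 each). In both groups replicate 2 was lowest.

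Across all genes few differences between the genotypes were called in smooth muscle cells. Of 7179 genes tested with edgeR on counts summed per library, 0 (0%) passed an adjusted p of 0.05 without pairing; 245 (3.41%) had an unadjusted p under 0.05, and DESeq2 also called 0, with 86 at an unadjusted p under 0.05. Counts were simulated with an assumed spread and no effect of the replicate number. In them the unpaired fit recovered 38 of 50 well-detected genes set to 2-fold in iECKO. Of 50 set to 0.5-fold it recovered 27, so real changes of this size can be missed. Genes at lower levels were not changed in the simulation, so their recovery is not known. Libraries with the same replicate number deviated together in smooth muscle cells, so the fit with the replicate number as a block is given beside the unpaired one. The fit with the block called 8 genes, 4 higher (0.0557% of those tested) and 4 lower (0.0557%) in iECKO. In it 500 genes (6.96%) had an unadjusted p under 0.05 (edgeR). Without regard to p, 331 genes (4.61%) lay higher and 289 (4.03%) lower in every iECKO library than in every control library. The 8 genes are given with the differences of the fit with the block; without it the adjusted p was 0.533 for Fgl2, Rasl10b, Ggt5, Plat, Ccl19 and Tppp3, and 1.00 for Hist1h2bc and Atf5.

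Fgl2 and Rasl10b rose, and the CPM of both was higher in smooth muscle cells than in pericytes or endothelial cells. Fgl2 (chr5:21372642-21378374 on GRCm38, 2 exons, plus strand) encodes fibrinogen-like protein 2, known as a membrane prothrombinase and a secreted immune regulator. It had 315, 434 and 137 CPM in iECKO smooth muscle cells, against 33.0, 79.0 and 47.8 CPM in control ones. The lowest iECKO library lay above the highest control, and each pair had the same direction. The log2 difference was 2.37 ± 0.28 (SE; adjusted p = 0.0177), and 2.48 ± 0.46 without the block. Fgl2 UMIs were seen in 174 of 366 iECKO cells and 63 of 335 control cells, or 45.7% ± 4.66 of cells per iECKO and 18.8% ± 2.30 per control library. After thinning each cell to 1000 UMIs the shares were 19.2% ± 4.07 in iECKO and 5.83% ± 1.72 in control libraries. The background was 0 of 119 pericytes in iECKO and 1 of 140 in control libraries, and 2 of 900 endothelial cells in iECKO and 3 of 900 in control libraries. Median depths were 4968 to 7761 UMIs in iECKO and 4736 to 6596.5 UMIs in control smooth muscle cells, and 2230 to 2548 UMIs in iECKO and 1805 to 2607.5 UMIs in control pericytes. No single cell carried more than 4.17% of the iECKO or 5.66% of the control Fgl2 UMIs. In endothelial cells, the class in which the recombinase acts, Fgl2 averaged 1.32 ± 0.385 CPM in iECKO and 1.06 ± 0.828 CPM in control libraries.

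Rasl10b (chr11:83409137-83421039, 4 exons, plus strand), which encodes a small GTPase of the RAS family, had 104, 39.5 and 32.1 CPM in iECKO and 17.2, 18.1 and 10.96 CPM in control cells. All iECKO libraries lay above all controls, and iECKO 1 was far above the other 2 iECKO libraries. Its log2 difference was 1.96 ± 0.30 (adjusted p = 0.00638). UMIs were present in 111 of 366 iECKO and 28 of 335 control cells, 25.8% ± 8.98 per iECKO and 8.33% ± 1.35 per control library, and after thinning 6.30% ± 2.87 in iECKO and 1.56% in control libraries. No UMI was found in 259 pericytes, which allows a share of up to 1.16% of cells with a UMI, and endothelial cells averaged 0.122 CPM. In the cells with at least 2% marker share Rasl10b was the 1 gene called without pairing among 6526 (0.0153% higher; log2 difference 2.17 ± 0.37, adjusted p = 0.0271). There Fgl2 had 336, 649 and 157 CPM in iECKO and 33.5, 90.2 and 59.3 CPM in control cells, with a log2 difference of 2.47 ± 0.35 with the block that missed the threshold (adjusted p = 0.142). The block called 5 genes in these cells, Rasl10b, Mgp and Fxyd5 higher (0.046%) and Tppp3 and Atf5 lower (0.0306%).

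Ggt5 and Plat also rose, and both were higher in pericytes than in smooth muscle. Ggt5, a gamma-glutamyl transferase that cleaves leukotriene C4, had 34.3, 39.5 and 53.1 CPM in iECKO and 15.8, 9.03 and 17.9 CPM in control cells (log2 difference 1.48 ± 0.30, adjusted p = 0.0484). Pericytes averaged 348 ± 105 CPM (SD, n = 6). Plat, tissue-type plasminogen activator, had 108, 78.9 and 131 CPM in iECKO and 48.8, 67.7 and 53.8 CPM in control cells (log2 difference 1.01 ± 0.20, adjusted p = 0.0484). Endothelial cells of the same libraries held 957, 383 and 228 CPM of Plat in iECKO and 325, 280 and 183 CPM in control, and the part of their free RNA in the smooth muscle values was not tested. For both genes the cells under 2% marker share, most frequent in iECKO 2, held more than the others. Ggt5 averaged 173 ± 74.2 CPM in iECKO and 72.8 ± 69.0 CPM in control cells under 2%, and 15.8 ± 4.24 CPM in iECKO and 6.40 ± 2.98 CPM in control cells from 2% on. What the mixture of both kinds of cell contributed was not tested.

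Ccl19 fell. This chemokine gene, a ligand of the lymphocyte receptor CCR7, had 85.3, 86.8 and 48.7 CPM in iECKO and 128, 239 and 139 CPM in control cells (log2 difference -1.12 ± 0.19, adjusted p = 0.0118). It came from few cells, 34 of 366 in iECKO and 41 of 335 in control libraries, and 1 cell held 15.2% of the iECKO UMIs and 1 held 10.5% of the control UMIs. In cells from 2% marker share on, Ccl19 fell below the filter on low counts and was not tested. Most of its UMIs lay in cells under 2% marker share, which had 542, 254 and 253 CPM in iECKO and 1425, 1183 and 612 CPM in control libraries. In these cells alone Ccl19 was again called with the block, the 1 gene of 1884 (0.0531% lower), with a log2 difference of -1.59 ± 0.25 (adjusted p = 0.000504). Under a stricter gate, with 5 markers, 10 UMIs and no endothelial gene, the difference was -0.27 and did not pass. Pericytes had 53.4, 58.3 and 12.2 CPM in iECKO and 102, 149 and 140 CPM in control, a log2 difference of -1.61 ± 0.47 that missed the threshold (adjusted p = 0.205). A second feature of the files also named Ccl19, on an unplaced scaffold, had no UMI in smooth muscle cells, so reads could be lost between near-identical copies.

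Tppp3, Atf5 and Hist1h2bc fell as well; Atf5, with overlapping groups, was named after its values were seen. Tppp3, which encodes a tubulin polymerization-promoting protein, had 39.6, 11.8 and 35.4 CPM in iECKO and 90.5, 56.4 and 84.7 CPM in control cells (log2 difference -1.31 ± 0.23, adjusted p = 0.0118). Every iECKO library lay below every control, and in pericytes Tppp3 averaged 89.5 ± 44.6 CPM. Atf5, a stress-responsive transcription factor gene, had 112, 90.7 and 173 CPM in iECKO and 233, 138 and 320 CPM in control cells (-0.90 ± 0.16, adjusted p = 0.0118); its groups overlapped, and the iECKO library was lower in 3 of 3 pairs. Hist1h2bc, one of a family of near-identical histone H2B genes between which reads may be divided, had 98.2, 67.1 and 49.8 CPM in iECKO and 157, 131 and 104 CPM in control cells (-0.86 ± 0.18, adjusted p = 0.0484). Endothelial cells had 43.3, 55.9 and 46.8 CPM of it in iECKO and 110.4, 73.8 and 50.9 CPM in control libraries.

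Most of these calls were lost with 1 pair left out. With the block and without replicate 1, Fgl2, Ccl19, S100a4 and S100a6 were called; without replicate 2, Rasl10b and Hbb-bs; without replicate 3, Fgl2 alone. Fgl2 kept a log2 difference of 1.98 to 2.86 in these fits, and its adjusted p without replicate 2 was 0.558. S100a4, Hbb-bs and Fxyd5 were named after their values were seen.

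**Figure D4:**
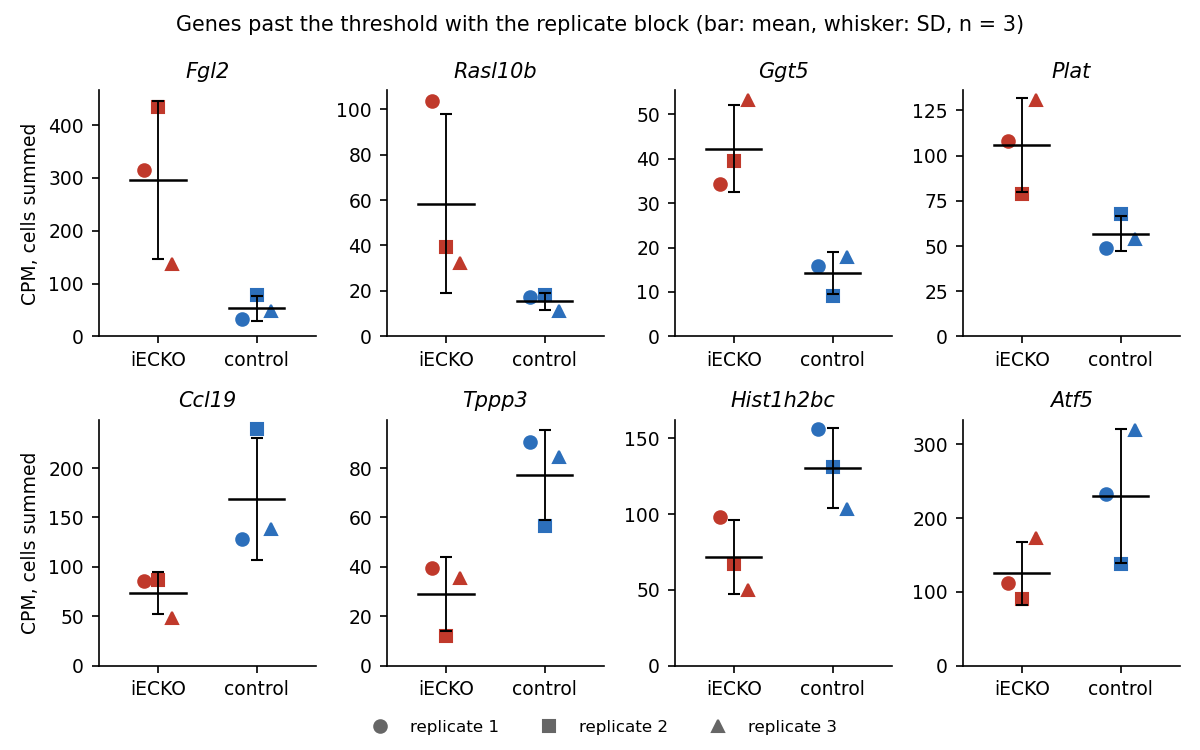
CPM in summed smooth muscle cells of the 8 genes called with the replicate block, iECKO left of control, 1 symbol per library with the shape giving the replicate number, the bar the mean and the whisker the SD (n = 3). Fgl2 lies at 137 to 434 CPM in iECKO and 33.0 to 79.0 CPM in control libraries; only Atf5 has overlapping groups.

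Among genes with the smallest unadjusted p whose libraries did not overlap, the values below did not pass. Slc12a2, the sodium-potassium-chloride cotransporter NKCC1, had 65.5, 138 and 86.3 CPM in iECKO and 30.2, 36.1 and 55.8 CPM in control cells (adjusted p = 0.0612 with the block); pericytes averaged 671 ± 333 CPM, and endothelial cells 67.0 ± 19.5 CPM in iECKO and 26.0 ± 3.67 CPM in control libraries, without overlap. Tef and Dbp, clock-controlled transcription factor genes, averaged 29.2 ± 6.14 CPM and 21.7 ± 6.57 CPM in iECKO and 9.39 ± 2.41 CPM and 5.51 ± 3.99 CPM in control cells. Nr1d2, which encodes the clock repressor REV-ERB beta, had 43.1 ± 7.94 CPM in iECKO and 20.4 ± 4.33 CPM in control cells. Glod4 had 44.7 ± 8.15 CPM in iECKO and 23.9 ± 2.60 CPM in control cells, and the antisense gene Tbx3os1, whose reads may be shared with the other strand, 71.4 ± 6.95 CPM in iECKO and 41.2 ± 5.43 CPM in control cells. On the other side Cdk15 had 9.32 ± 4.75 CPM in iECKO and 33.0 ± 10.9 CPM in control cells (adjusted p = 0.0612 with the block), and the linker histone gene Hist1h1c, which has near-identical relatives, 73.4 ± 15.3 CPM in iECKO and 128 ± 26.7 CPM in control cells (adjusted p = 0.0612). Atp8b1, a phospholipid flippase gene, had 22.0 ± 6.52 CPM in iECKO and 50.3 ± 3.91 CPM in control cells. Cox18, G0s2, Pcdh18 and Faim averaged 9.55 to 52.1 CPM in iECKO and 21.9 to 91.1 CPM in control cells.

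By function, the gene lists sat near no difference. All genes tested had a median log2 difference of -0.01, and the medians of 18 functional lists lay between -0.15 and 0.14. No list member was called without pairing, and Plat was the single one called with the block. Of 26 contractile genes outside the rule 9 had a positive and 17 a negative difference, with a median of -0.04 and none at an unadjusted p under 0.05. The myosin light chain gene Myl6 had 6884 ± 2066 CPM in iECKO and 7892 ± 2038 CPM in control cells, and the tropomyosin gene Tpm1 3989 ± 183 CPM in iECKO and 3996 ± 290 CPM in control cells. Caldesmon, encoded by Cald1, had 2608 ± 657 CPM in iECKO and 2396 ± 256 CPM in control cells.

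Calcium handling and ion channel genes had 17 of 18 tested on the positive side, at a median of 0.13, with 1 at an unadjusted p under 0.05. Atp2a2, the calcium pump that Pln restrains, had 798 ± 134 CPM in iECKO and 727 ± 88.3 CPM in control cells, and the calcium release channel Itpr1 231 ± 36.2 CPM in iECKO and 227 ± 33.0 CPM in control cells. The member with the unadjusted p under 0.05 was Kcnk3, a potassium leak channel gene. Vasoactive receptors and cyclic nucleotide genes had 14 of 18 positive, at a median of 0.06. Rgs5 had 1711, 4419 and 2862 CPM in iECKO and 1417, 2504 and 2251 CPM in control cells, which overlapped; it is one of the genes of low-share cells. The phosphodiesterase gene Pde3a had 531 ± 115 CPM in iECKO and 525 ± 69.0 CPM in control cells.

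Transcription regulators had a median of -0.06 (5 of 14 positive). Ebf1, a mural cell transcription factor, had 805 ± 24.9 CPM in iECKO and 672 ± 43.9 CPM in control cells, a log2 difference of 0.26 ± 0.22 that did not pass although the groups did not overlap. Notch signalling had 6 positive and 6 negative of 12 tested, with Notch3 at 465 ± 123 CPM in iECKO and 450 ± 11.5 CPM in control cells. Of 19 genes of TGF-beta and BMP signalling 4 had an unadjusted p under 0.05, beside 3.41% of all genes tested, and none passed. They were the ligand gene Tgfb3, at 136 ± 6.30 CPM in iECKO and 195 ± 68.9 CPM in control cells, the receptor gene Tgfbr2, at 71.5 ± 23.6 CPM in iECKO and 43.7 ± 4.47 CPM in control cells, the inhibitory Smad gene Smad7, at 153 ± 35.7 CPM in iECKO and 95.3 ± 6.24 CPM in control cells, and Ccn2. Ccn2, a matricellular target of that pathway, had 576, 513 and 259 CPM in iECKO and 340, 160 and 280 CPM in control cells, and the inhibitor gene Id3, which was not among the 4, had 1350 ± 675 CPM in iECKO and 971 ± 48.4 CPM in control cells.

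The lists of matrix genes also had medians near no difference. Of 16 elastic and interstitial matrix genes tested 7 were positive, and Mgp, the calcification inhibitor matrix Gla protein, had 2292, 1657 and 1199 CPM in iECKO and 874, 946 and 2964 CPM in control cells, with control 3 the highest of all. From 2% marker share on, Mgp had 1942, 1271 and 1072 CPM in iECKO and 692, 882 and 718 CPM in control cells and was called with the block there; in cells under 2% control 3 alone reached 11918 CPM and the other libraries 1294 to 4525 CPM. Basement membrane and integrin genes had 13 of 20 positive at a median of 0.04, with the integrin subunit Itgb1 at 1011 ± 122 CPM in iECKO and 998 ± 75.6 CPM in control cells. Proteases and inhibitors had 9 of 12 positive, with the cystatin gene Cst3 at 2453 ± 944 CPM in iECKO and 2413 ± 665 CPM in control cells. Of these 12, Adamts4, Plat and Serping1 had an unadjusted p under 0.05 (edgeR), beside 3.41% of all genes tested. Without overlap 3 of the 12 lay higher in iECKO, beside 4.61% of all genes tested.

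Lists of altered states had medians near no difference as well. Of 10 genes of phenotypic modulation 5 were positive and 5 negative; Vim had 2635 ± 973 CPM in iECKO and 3239 ± 483 CPM in control cells. Inflammatory and NF-kappaB genes had 10 of 16 positive at a median of 0.04, and interferon-induced genes 7 of 12 at 0.09, with Ifitm3 at 901, 631 and 626 CPM in iECKO and 547, 467 and 486 CPM in control cells, higher in each iECKO library but not past the threshold (log2 difference 0.53 ± 0.23; under the stricter gate it was called with the block). Of the 12 interferon-induced genes 2, Isg15 and Ifitm3, had an unadjusted p under 0.05 (edgeR), beside 3.41% of all genes tested. Without overlap 2 of the 12 lay higher in iECKO, beside 4.61% of all genes tested. Immediate-early and dissociation stress genes had 10 of 25 positive at a median of -0.08. Among them Fos had 3063 ± 872 CPM in iECKO and 3691 ± 914 CPM in control cells. Hypoxia and glycolysis genes had 7 of 14 positive, and the G1 and cell cycle list 3 of 9.

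**Figure D5:**
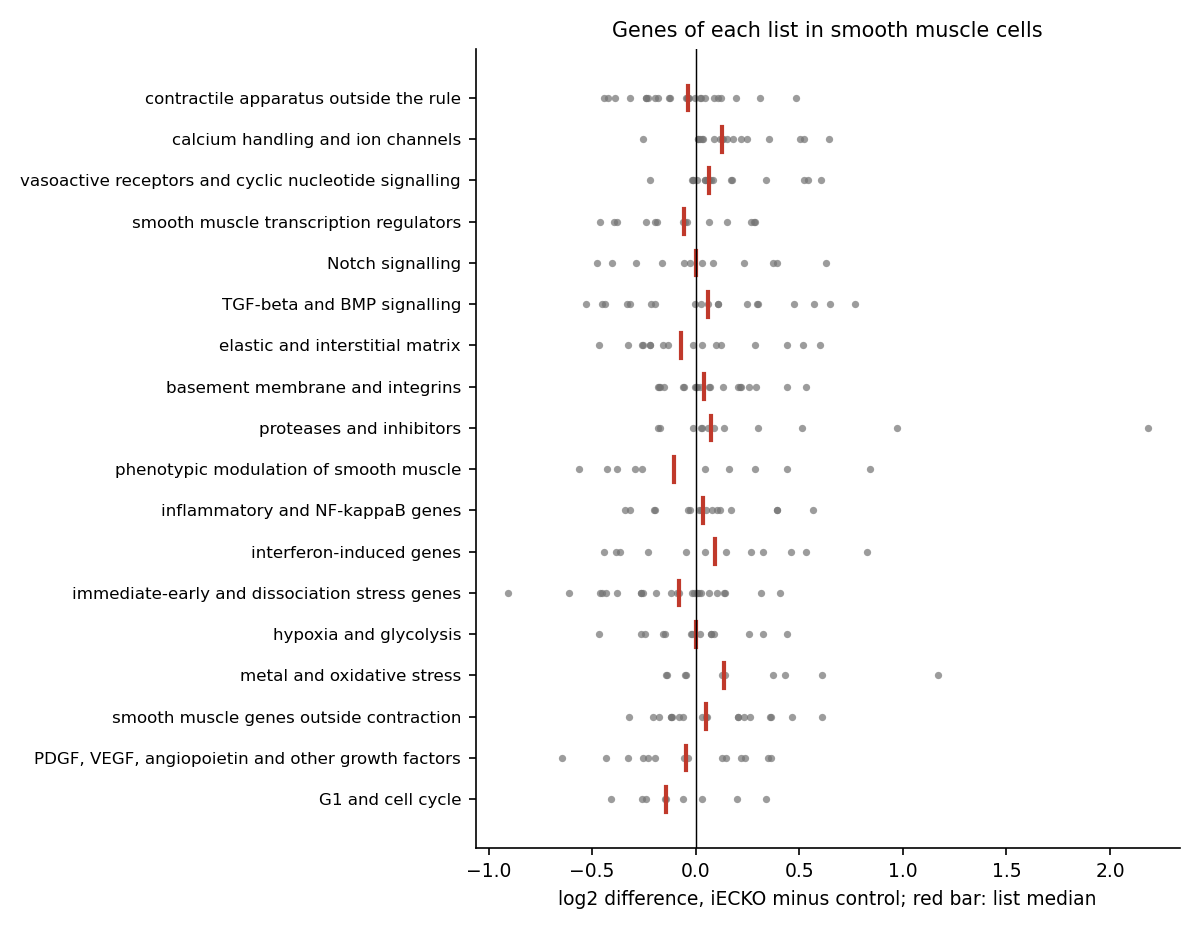
Log2 difference between iECKO and control smooth muscle cells (x axis, edgeR without the block) of each tested gene of 18 lists (y axis), with the list's median as a red bar. The medians lie between -0.15 and 0.14, beside -0.01 for all genes tested; the point farthest right is Adamts4 at 2.18, which had 13.3 to 35.8 CPM in iECKO and 0 to 10.96 CPM in control cells and did not pass.

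Whether the effect of genotype differed between smooth muscle cells and pericytes was tested directly, with the library as a block. Of 4285 genes 2 passed, 1 more positive (0.0233%) and 1 more negative (0.0233%) in smooth muscle; the more positive was Spp1, with few UMIs. Fgl2, with 1 UMI in all pericytes, had a difference of log2 effects of 5.73 ± 3.07 that did not pass, and Rasl10b, with none, fell below the filter on low counts. For Ccl19, Tppp3, Plat and Ggt5 the differences of effects were 0.51 ± 0.52, -0.41 ± 0.56, 0.74 ± 0.34 and 0.76 ± 0.42, and none passed. In pericytes alone 2 of 2056 genes were called, Arrdc3 higher (0.0486%) and Apoe lower (0.0486%). With the replicate block Apoe was called again and Arrdc3 missed the threshold (adjusted p = 0.0523), as it did without iECKO 1 (0.558) and without control 2 (0.0879), while Cst3 was called lower. With 119 pericytes in iECKO and 140 in control libraries, these sums are thinner than those of smooth muscle.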

How the data were processed

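The deposited matrices give, for each gene and barcode, the number of UMIs (raw counts). Per the file headers they come from Cell Ranger 6.1.1, and the submitters' processing notes name the build mm10 and Seurat; no Seurat output was used here. The counts are not normalized. Of 32286 features, 32235 were found in GENCODE M21 (GRCm38), which gave gene coordinates.

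Cells were chosen by the stated rule, pericytes and endothelial cells by gates of their own. Counts were summed per library. The main test was edgeR 4.0.16 (robust quasi-likelihood, TMM, filterByExpr, Benjamini-Hochberg adjustment, two-sided) in R 4.3.3, checked on simulated data; DESeq2 1.42.0 was an alternative, with others in the closing section. SE is the log2 difference divided by the root of F. CPM are per 1000000 UMIs of the summed cells, adjusted by TMM factors; summed marker lists, Xist and cells divided by marker share are without factors. Single values were compared with exact permutation tests. No doublet caller was run; the rule limits endothelial and microglial mixtures only. Shares of cells with a UMI were also taken after thinning to 1000 UMIs, and in 300 endothelial cells per library. The cells, gene lists and tests were chosen with earlier results of these data known.

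Named genes were set by rule: the 6 markers; genes past the threshold without overlap and a mean log2 CPM of 5 or more, first unpaired, then with the block, then the 10 each way with the smallest unadjusted p; per list the called members, otherwise the 3 of highest level, of which some are described; and the largest ratios after adding 20 CPM against pericytes (10 each way) and between cells of high and low marker share (8 each way). Predicted and sex-linked genes were not named, apart from Gm42418 and Xist as marks of the libraries, and some genes that these rules name are not reported here.

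Pairing of libraries by replicate number was checked in smooth muscle sums: over 7179 genes (not independent), the deviations of same-numbered libraries from the means of their groups had an r of 0.281, 0.254 and 0.163, and 0.276, 0.236 and 0.149 without sex-linked genes and Gm42418. Over all genes tested, libraries of different numbers had an r of -0.261 to 0.0663. In endothelial sums without sex-linked genes and Gm42418, the same number gave the highest r for iECKO 1 (0.453) and iECKO 3 (0.182). There iECKO 2 had 0.237 with control 3 and 0.180 with control 2. Counts of calls with and without the block were obtained in the same run as this check. Python 3.11.15, numpy 2.4.6, scipy 1.17.1, pandas 2.3.3 and matplotlib 3.10.9 were used.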

Additional observations from a re-analysis of the deposited data

Results flagged for a closer look

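For Spp1 the effect of genotype differed between smooth muscle cells and pericytes by a test of the difference itself. The gene encodes osteopontin, and the difference of log2 effects was 7.45 ± 1.12 (SE; edgeR, adjusted p = 1.84e-05). Smooth muscle cells held 87, 1 and 0 Spp1 UMIs in iECKO and none in control libraries, and of the 87 in iECKO 1, which lay in 5 of 227 cells, 45 came from a single cell. Pericytes held 23, 2 and 1 in iECKO and 30, 4 and 0 in control libraries. Without control 1 the difference was 3.45 and no longer passed, and without iECKO 1 the gene fell below the filter on low counts and was not tested. The fitted value depends on how a group without a UMI is treated and is no measure of a fold.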

How the results depend on the processing

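The count of genes called in smooth muscle cells (0 unpaired) stayed at 0 with RLE factors, DESeq2, the stricter gate, 40 cells per library, at least 2000 UMIs, genes of free RNA left out and cells under 2% marker share. It was 12 with no filter on low counts and, with the replicate block, 8, with 5 under the stricter gate and 8 without genes of free RNA. Leaving out 1 library gave 0 to 6 calls, the 6 without iECKO 3; leaving out a replicate number with the block gave 4, 2 and 1. At 2% marker share or more there were 1 call unpaired and 5 with the block, and under 2% 1 with the block. None of the 21 named genes reversed in 428 values, but all except Atf5 were named because their groups did not overlap. Most of these settings refit the same sums, so that choice largely set the sign beforehand. Pericyte calls (2) were 6 with no filter, 2 with the block (Apoe and Cst3, both lower) and 1 to 12 without 1 library. The difference between smooth muscle and pericytes (2 calls) gave 1 to 3 without 1 library. The difference in smooth muscle share (0.25 percentage points) was -0.0565 at 2000 UMIs and 5% mitochondrial RNA and -0.131 to 0.724 without 1 library. Smooth muscle cells per 100 pericytes (32.8) were -13.7 at those limits, -76.5 at 2000 UMIs alone, and -38.2 to 136 without 1 library. Without 1 library the marker share (-0.435) was -1.04 to 0.299 and median UMIs (497) -183 to 1213.5. The cause of these shifts was not tested. The gene test at 2000 UMIs and 5% mitochondrial RNA was not run, since 4 libraries kept under 10 cells. The alternatives at 2% marker share, at 2000 UMIs alone and those joining the block to another choice were chosen after seeing the data. iECKO 2 had the fewest cells (40) and UMIs (259630), which limits the precision of its values.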

Other observations

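Clock genes other than Tef, Dbp and Nr1d2 were looked up after their values were seen. Nr1d1, which encodes REV-ERB alpha, had 42.6, 82.8 and 71.9 CPM in iECKO and 33.0, 11.3 and 41.9 CPM in control smooth muscle cells (edgeR log2 difference 0.97 ± 0.34, adjusted p = 1.00). Its groups did not overlap, iECKO 1 lying just above control 3. The activator genes Arntl and Clock overlapped between groups, with log2 differences of -0.45 ± 0.35 and 0.08 ± 0.28. Hlf, Per1, Cry2 and Npas2 overlapped too, at 0.21 ± 0.32, 0.41 ± 0.33, 0.45 ± 0.38 and -0.30 ± 0.45. Per2, Per3, Cry1 and Ciart fell below the filter on low counts and were not tested. The hour at which each brain was taken is not given in the sources used here.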
